A study of Homo sapiens with 19 samples.

Results

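The histone variants H3.3 and H2AZ were compared in U2OS cells, an established human osteosarcoma line, through every peak that the mock library of either variant listed. The H3.3 list held 79838 peaks and the H2AZ list 58082, together 137920 of the 431797 regions in all 11 peak lists of the series. Cells had been transfected with a mock siRNA directed against GFP and harvested after 72 hr. The same cells after mock siRNA gave 1 library each for the histone marks H3K18ac and H3K4me1, for Pol II, for the Mediator subunit MED26 and for RNA. EP400, an ATP-dependent remodeler of the TIP60 complex, had been immunoprecipitated 3 times in U2OS cells for which the labels do not state the siRNA, and the 3 came as 1 list. For a last comparison, H3.3 and H2AZ had been immunoprecipitated after EP400 siRNA, also with 1 library each.

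H3.3 is a form of histone H3 that is made throughout the cell cycle and deposited independently of DNA replication, by the chaperones HIRA and DAXX with ATRX, and it is known for marking transcribed genes, promoters and enhancers as well as telomeric repeats. H2A.Z, written H2AZ in the labels, replaces H2A in nucleosomes that flank transcription start sites and is deposited by the SRCAP and TIP60/EP400 remodelers. Nucleosomes that hold both variants have been described at active promoters and enhancers.

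Every list gave intervals alone, with no height and no strand, so depth is unknown and a site missing from a list may lie below that list's threshold. With 1 library per antibody there was no replicate spread and no test. Intervals given with shares are 95% Wilson intervals, those given with differences are Newcombe intervals, and both cover counting error only. Of the marker genes for the cell type, 7 of 8 mesenchymal and osteoblast markers had an FPKM (the fragment count relative to transcript length and total fragments) of 1 or more in the mock RNA library, against 2 of 5 epithelial, 1 of 4 neural and 0 of 4 blood markers. The deposited FPKM carry wide confidence limits from their authors, with a lower limit of 0 for many of the most abundant genes, so that ranks of single genes are loose.

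Promoters of 4 highly expressed genes are shown because they carry the 4 patterns of variant peaks described here: both variants, H3.3 only, H2AZ only and neither, within 2 kb of the start as well as at either end of the locus. Each is the 250 bases before the gene's start in RefSeq (GRCh38.p14), printed 5′ to 3′ along the gene, with every CG dinucleotide in capitals. RPS21 (both variants, chr20:62386853-62387102, plus strand) and RPLP1 (H3.3 only, chr15:69452568-69452817, plus strand) encode ribosomal proteins. COX7C (H2AZ only, chr5:86617691-86617940, plus strand) encodes a subunit of cytochrome c oxidase. IFITM3 (neither, chr11:320861-321110, minus strand) encodes an interferon-induced membrane protein that restricts virus entry.
RPS21: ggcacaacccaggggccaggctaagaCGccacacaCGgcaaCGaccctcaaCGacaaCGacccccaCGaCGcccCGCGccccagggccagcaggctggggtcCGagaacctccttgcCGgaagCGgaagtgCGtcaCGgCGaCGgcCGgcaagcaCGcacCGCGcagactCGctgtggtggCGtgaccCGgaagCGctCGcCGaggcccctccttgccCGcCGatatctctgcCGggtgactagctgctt
RPLP1: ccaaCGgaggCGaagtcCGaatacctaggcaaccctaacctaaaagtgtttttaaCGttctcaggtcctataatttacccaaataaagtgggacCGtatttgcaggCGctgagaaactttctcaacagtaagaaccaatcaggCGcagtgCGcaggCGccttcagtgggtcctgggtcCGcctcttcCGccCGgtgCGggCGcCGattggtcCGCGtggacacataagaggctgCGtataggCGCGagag
COX7C: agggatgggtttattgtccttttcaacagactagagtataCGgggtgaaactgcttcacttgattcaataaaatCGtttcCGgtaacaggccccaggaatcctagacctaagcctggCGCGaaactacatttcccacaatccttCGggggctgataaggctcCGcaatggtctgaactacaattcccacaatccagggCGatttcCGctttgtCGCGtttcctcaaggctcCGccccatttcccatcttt
IFITM3: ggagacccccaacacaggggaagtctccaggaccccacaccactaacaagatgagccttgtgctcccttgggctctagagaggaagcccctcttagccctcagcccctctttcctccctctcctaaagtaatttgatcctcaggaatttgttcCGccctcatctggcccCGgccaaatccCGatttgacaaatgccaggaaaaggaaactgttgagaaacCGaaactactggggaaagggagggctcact

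These 4 stretches held 29, 20, 12 and 4 CG dinucleotides, in the order printed. In the mock RNA library RPS21 had an FPKM of 4503, RPLP1 15291, COX7C 1183 and IFITM3 482. Within 2 kb of the ends of its locus, RPS21 had 4 H3.3 peaks covering 3300 bp and 1 H2AZ peak of 200 bp. RPLP1 had 5 H3.3 peaks covering 4900 bp and no H2AZ peak, and COX7C had a single H2AZ peak of 500 bp and no H3.3 peak. IFITM3 had a Pol II peak of 100 bp and none of the other peaks named here; it has close paralogs next to it, so reads there are uncertain.

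A minority of the peaks of either variant met a peak of the other. The overlap that unrelated lists of this coverage would have was not computed. For scale, 5.01% of the mock H3.3 and 28.1% of the mock H2AZ peaks met the list of the same variant after EP400 siRNA. Of the H3.3 peaks, 6150 shared at least 1 bp with an H2AZ peak (7.7%, interval 7.52 to 7.89%), and of the H2AZ peaks, 6057 shared at least 1 bp with an H3.3 peak (10.4%, interval 10.2 to 10.7%). Shared bases were 4.81% of the H3.3 and 6.46% of the H2AZ total, which covered 22.8 Mb and 17 Mb. The share rose with peak width in both lists: from 5.07% at 100 bp to 13.8% at 1000 bp or more for H3.3, and from 4.86% to 29.2% for H2AZ. A further 15.6% of the H3.3 peaks lay within 1 kb of an H2AZ peak without sharing a base, and 17.7% of the H2AZ peaks lay so near an H3.3 peak. These include peaks that only touched, 2.23% of the H3.3 and 2.89% of the H2AZ list. Over longer distances the lists were unequal: 96.9% of the H3.3 peaks had an H2AZ peak within 100 kb, whereas 66.0% of the H2AZ peaks had an H3.3 peak within 100 kb. The median gap from a peak without overlap to the nearest peak of the other variant was 9400 bp from H3.3 and 42800 bp from H2AZ.

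Joining the peaks of both lists that shared 1 bp or more gave 131680 sites. H3.3 only sites numbered 73688 (56% of all sites), H2AZ only sites 52025 (39.5%) and shared sites 5967 (4.53%). Nearly all shared sites (5705) joined 1 peak of each variant. The variants seldom covered the same stretch there: the medians were 300 bp for the H3.3 part, 400 bp for the H2AZ part and 100 bp for the bases in common. H2AZ was the wider of the pair at 52.4% of shared sites and H3.3 at 34.8%, and 457 sites had identical intervals. A shared site is a union of peaks and so wider by construction, at a median width of 600 bp where sites of 1 variant had 200 bp. Some comparisons with it are therefore given within classes of width as well.

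The classes lay in different parts of the genome. Sites within 2 kb of either end of a locus of the RNA table, whatever its FPKM, made up 50.1% of the shared, 24.1% of the H3.3 only and 26.9% of the H2AZ only sites, against 26.4% of all sites. Enhancers, taken as stretches with both H3K4me1 and H3K18ac away from locus ends, held 17.7% of the shared, 9.42% of the H3.3 only and 3.72% of the H2AZ only sites, against 7.54% of all. The lead of shared over H3.3 only sites at enhancers depended on width. Enhancers held 12.85% of the shared against 5.38% of the H3.3 only sites at 100 bp, and 19.06% against 18.01% at 500 to 900 bp. At 1000 bp or more the order was turned, with 17.01% of the shared and 20.07% of the H3.3 only sites. H2AZ only sites stayed lowest there, at 4.16%. The interior of loci held 43.9% of the H3.3 only sites but 21.9% of the H2AZ only and 13.6% of the shared sites, against 33.8% of all. Outside loci, the order turned: 47.5% of the H2AZ only sites lay between loci, compared with 22.6% of the H3.3 only and 18.7% of the shared sites, against 32.3% of all.

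**Figure D1:**
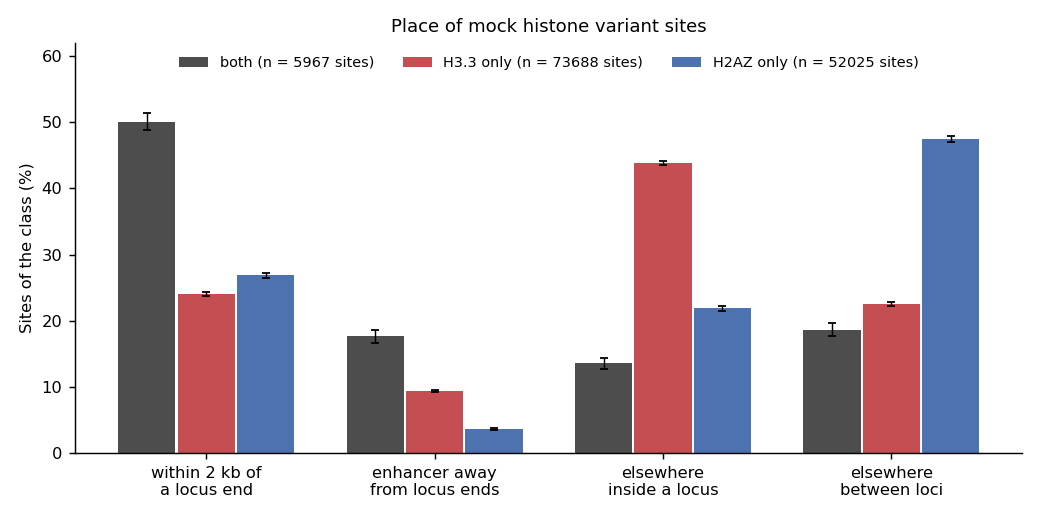
Share of mock sites of each class (percent, vertical axis) in 4 kinds of place (horizontal axis), as bars with 95% Wilson intervals. Shared sites stand highest at locus ends (50.1%), H3.3 only sites inside loci (43.9%) and H2AZ only sites between loci (47.5%).

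At locus ends H2AZ only exceeded H3.3 only by 2.80 percentage points (interval 2.31 to 3.29). This order depended on the definition: with the ends widened to 5 kb the difference became -7.93 points, and with peaks up to 1 kb apart joined it became -0.916 points. Among the narrowest sites, of 100 bp, it was also turned (-1.17 points, interval -1.82 to -0.510), while in every wider class H2AZ only was ahead by 3.80 to 7.86 points. The lead of shared sites at locus ends remained within every class of width, from 29.5% against 19.5% and 18.3% (H3.3 only and H2AZ only) at 100 bp to 60.7% against 44.8% and 51.2% at 1000 bp or more.

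Peaks of histone marks, Pol II, MED26 and EP400 also differed between the classes. H3K18ac and H3K4me1 define the enhancers above, so their shares are not independent of the enhancer shares. H3K18ac, an acetylation of active promoters and enhancers, overlapped 70.3% of the shared, 19.8% of the H3.3 only and 28.8% of the H2AZ only sites, against 25.7% of all sites. Pol II overlapped 65.0%, 11.5% and 26.6% in the same order, against 19.9% of all. For MED26, a Mediator subunit that recruits elongation factors, the shares were 57.2%, 7.06% and 18.2%, against 13.7% of all. EP400 overlapped 16.3% of the shared sites, 1.69% of the H3.3 only and 4.15% of the H2AZ only sites, against 3.32% of all. For these 4 lists the order was therefore shared, H2AZ only, H3.3 only. The lead of H2AZ only over H3.3 only shrank when peaks up to 1 kb apart were joined, from 9.03 to 2.40 points for H3K18ac, 15.1 to 6.46 for Pol II, 11.1 to 4.31 for MED26 and 2.46 to 1.44 for EP400. H3K4me1, a methylation that marks enhancers, had another order: 27.5% of the shared, 16.2% of the H3.3 only and 6.83% of the H2AZ only sites, against 13% of all.

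**Figure D2:**
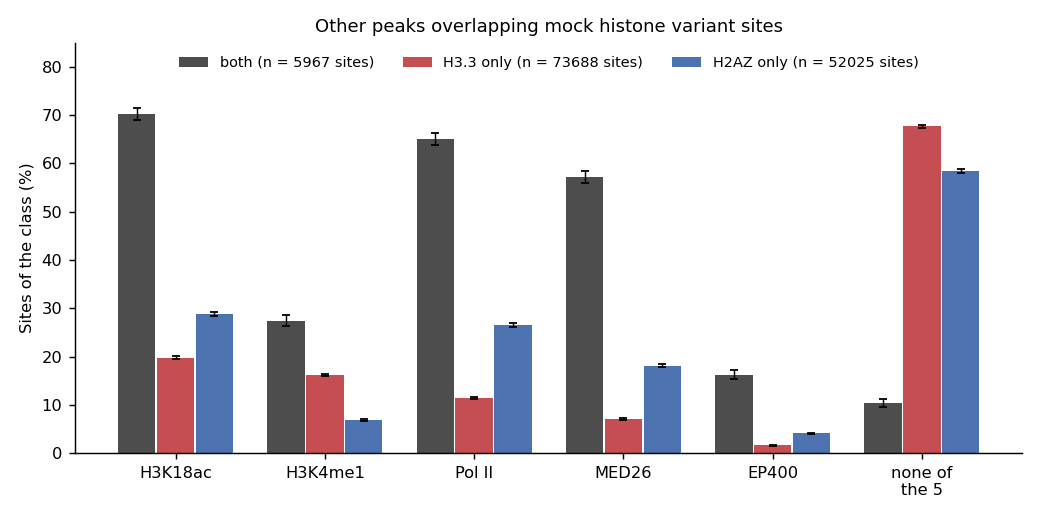
Share of mock sites of each class (percent, vertical axis) that overlap a peak of H3K18ac, H3K4me1, Pol II, MED26 or EP400, or none of the 5 (horizontal axis), as bars with 95% Wilson intervals. Shared sites are highest for all 5, H2AZ only exceeds H3.3 only for 4 of them, and for H3K4me1 H3.3 only (16.2%) exceeds H2AZ only (6.83%).

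A large part of either variant's own sites overlapped none of the 5 lists: 67.7% of the H3.3 only and 58.5% of the H2AZ only sites, against 10.4% of the shared and 61.5% of all sites. The most frequent combination at shared sites was H3K18ac with Pol II and MED26 (24.1%), and the same combination plus EP400 came to 9.80%. H2AZ only sites with any of the 5 also had H3K18ac with Pol II and MED26 most often (10.3%). H3.3 only sites instead had H3K18ac with H3K4me1 most often (7.22%). Where H3K18ac was present, H3K4me1 was present too at 56.0% of the H3.3 only sites, 33.8% of the shared sites and 15.1% of the H2AZ only sites.

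Width and place moved these shares but rarely their order. At sites of 1000 bp or more, Pol II overlapped 84.5% of the shared, 64.1% of the H2AZ only and 52.1% of the H3.3 only sites, and at 100 bp 27.1%, 14.8% and 5.11%. EP400 overlapped 30.5%, 16.6% and 9.16% of the widest sites in that order. For H3K4me1 the shared sites led the H3.3 only sites up to 400 bp but fell behind them above that, with 34.9% against 45.9% at 1000 bp or more. At locus ends Pol II overlapped 87.3% of the shared, 71.2% of the H2AZ only and 25.3% of the H3.3 only sites, and EP400 22.5%, 9.66% and 2.93%.

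Enhancers gave a different picture from locus ends. Shared enhancer sites overlapped Pol II at 35.2%, MED26 at 41.5% and EP400 at 9.20%. The H3.3 only enhancer sites were ahead of the H2AZ only sites there, with 16.8% against 12.8% for Pol II (a difference of -3.99 points for H2AZ only minus H3.3 only, interval -5.66 to -2.21) and 19.7% against 12.5% for MED26 (-7.20 points, interval -8.89 to -5.40). For EP400 the 2 classes could not be separated by counting error, at 4.19% and 4.76% (difference 0.568 points, interval -0.428 to 1.70). Between loci, H3K18ac overlapped 15.0% of the H3.3 only and 14.3% of the H2AZ only sites, a difference of -0.693 points.

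Locus ends join the start of transcription with its far end, so the direction of RefSeq was used to part them for 12705 loci with 1 gene symbol. Sites near both a start and a far end were left out of these counts. At starts, H2AZ only sites were 51.3% of 16742 sites, H3.3 only sites 38.0% and shared sites 10.7%. At far ends, H3.3 only sites were 87.1% of 5364 sites, H2AZ only sites 10.7% and shared sites 2.18%. At starts Pol II overlapped 88.9% of the shared, 74.9% of the H2AZ only and 30.1% of the H3.3 only sites. At far ends it overlapped 15.3% of the H3.3 only sites, and 75.2% of these overlapped none of the 5 lists.

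The arrangement around starts was read at isolated loci, those of 10 kb or more with no other locus within 5 kb. Of 2435 isolated loci with a mock FPKM of 1 or more, 84.8% had H2AZ and 58.1% had H3.3 within 2 kb of the start. At their far ends the order was turned, with 23.9% for H3.3 and 2.05% for H2AZ. H2AZ formed a double crest close to the start: 42.3% of the bases 300 to 400 bp upstream and 48.1% of the bases 200 to 300 bp downstream lay in an H2AZ peak, with 24.9% in the first 100 bp downstream. H3.3 crests lay farther out and lower, with 10.6% of bases 600 to 700 bp upstream and 11.0% of bases 700 to 800 bp downstream, and 1.44% in the first 100 bp downstream. Accordingly, the centres of peaks within 2 kb lay at a median of 917.5 bp from the start for H3.3 and 373.5 bp for H2AZ, and 19% and 67.9% of them lay within 500 bp. Between the crests, Pol II peaks covered up to 85.6% of bases, 100 to 200 bp downstream.

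**Figure D3:**
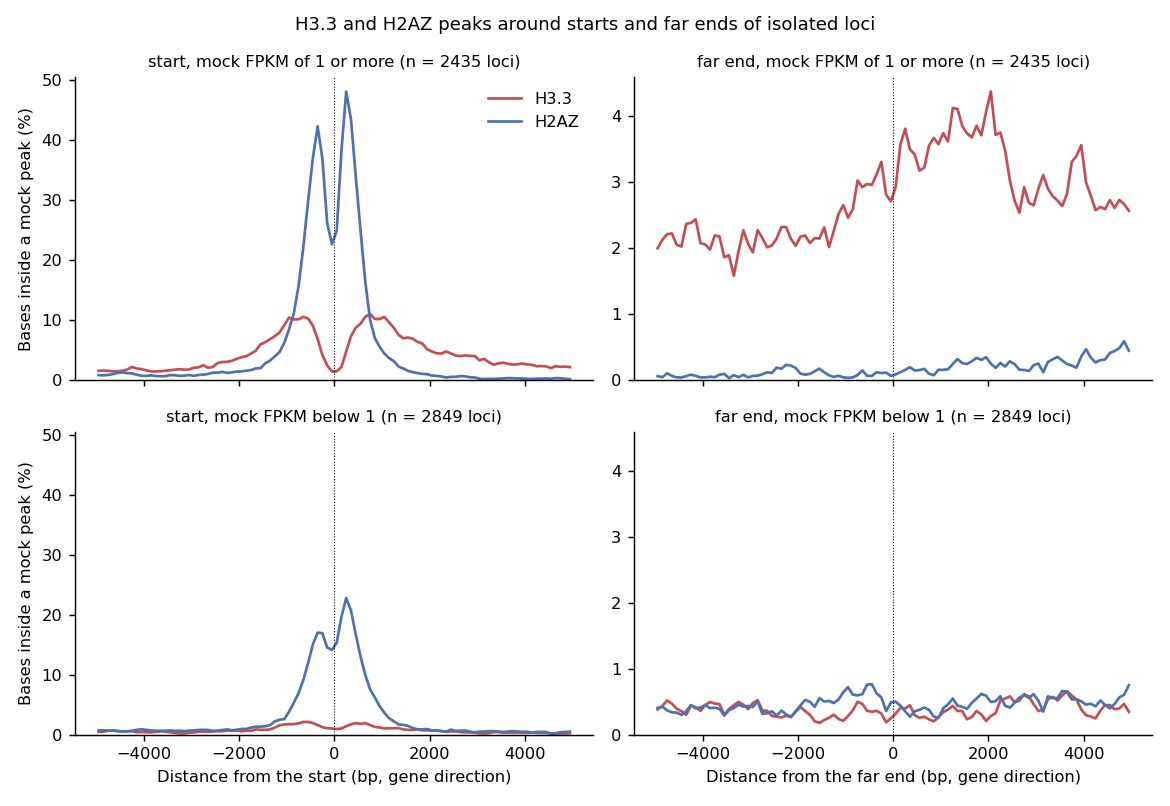
Share of bases inside a mock H3.3 or H2AZ peak (percent, vertical axis, in steps of 100 bp; the scale of the far end panels is smaller) by distance in bp along the gene from the start or far end of isolated loci, for 2435 loci with a mock FPKM of 1 or more and 2849 below 1. At expressed starts the H2AZ crests reach 42.3% and 48.1% on either side of the start and the H3.3 crests 10.6% and 11.0% farther out.

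Past the far end of expressed isolated loci, H3.3 covered up to 4.37% of bases, 2000 to 2100 bp beyond it, while H2AZ stayed at or below 0.588%. The 2849 isolated loci with an FPKM below 1 kept H2AZ crests at the start, of 17% upstream and 22.8% downstream, but H3.3 did not exceed 2.15% there. H2AZ was within 2 kb of 42.4% of these starts and H3.3 of 16%. H2AZ without H3.3 occurred at 30.1% of these starts and 32.4% of the expressed ones, whereas both variants occurred at 12.3% and 52.4%.

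The mock RNA library was then set against the variant peaks within 2 kb of either end of each of 20091 loci. Both variants were present at 7405 loci (36.9%), H2AZ only at 4328 (21.5%), H3.3 only at 2098 (10.4%) and neither at 6260 (31.2%). Median FPKM was 7.80 at loci with both (95% order-statistic interval 7.37 to 8.45), 3.05 with H3.3 only (2.44 to 3.75), 0.757 with H2AZ only (0.689 to 0.816) and 0.0147 with neither (0.0126 to 0.0170). An FPKM of 1 or more was reached by 80.9%, 59.6%, 45.0% and 17% of these loci, against 51.1% of all loci. Among the loci that reached it, H3.3 only had the highest median FPKM, 21.1, followed by 13.5 with both, 4.23 with neither and 3.50 with H2AZ only. The classes differed in length, with medians of 13910 bp for H3.3 only and 42598 bp for H2AZ only, and the part of length in the difference was not tested.

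H3.3 rose with each step in RNA level, whereas H2AZ was level among expressed loci. H3.3 was at the ends of 47.3% of all loci, and of 7.76% of loci with an FPKM of 0, 31.1% of those between 0 and 1, and 49.7%, 59.0%, 70.8%, 82.6% and 90.8% of the expressed loci in 5 equal classes of rising FPKM. H2AZ was at 58.4% of all loci, at 17.6% and 49.8% of the first 2 groups and at 76.8%, 76.5%, 79.2%, 78.8% and 75.7% of the expressed classes. H2AZ without H3.3 fell from 34.4% in the lowest to 5.17% in the highest expressed class. H3.3 without H2AZ rose from 7.31% to 20.3%.

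**Figure D4:**
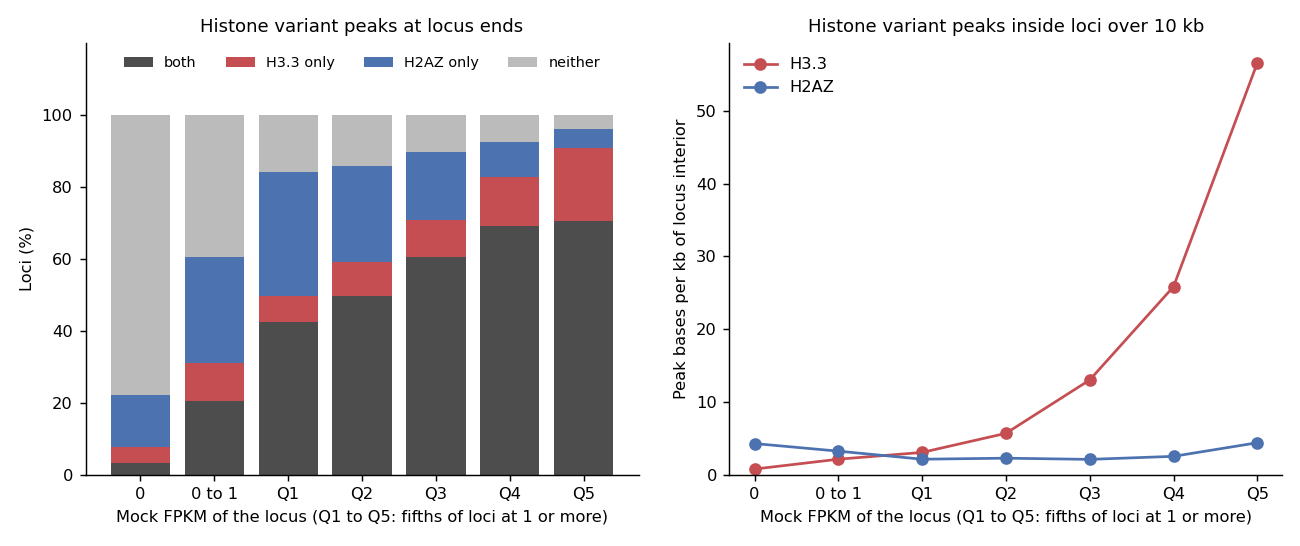
Left, share of loci (percent) with both variants, H3.3 only, H2AZ only or neither within 2 kb of their ends, as stacked bars, by mock FPKM of the locus; right, bases in H3.3 or H2AZ peaks per kb inside loci over 10 kb, by the same groups. H3.3 inside loci goes from 0.787 bp per kb at an FPKM of 0 to 56.6 in the highest class, and H2AZ stays between 2.12 and 4.40.

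The interior of loci over 10 kb, leaving out 2 kb at each end, showed the same contrast. H3.3 peaks covered 0.787 bp per kb at an FPKM of 0, 2.14 between 0 and 1, and 3.07, 5.70, 13.0, 25.8 and 56.6 bp per kb in the 5 expressed classes. H2AZ covered 4.29 bp per kb at an FPKM of 0, 3.25 between 0 and 1, both above H3.3, and 2.12 to 4.40 bp per kb in the expressed classes. In the highest class 88.4% of the loci held an H3.3 peak inside and 24% an H2AZ peak.

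Promoter sequence differed between the classes in its CG content. Only windows at the outermost start of a RefSeq gene were used, 25763 of 35116 in the table, which gave 11262 loci; all counts are over the 300 bases from 250 before to 50 after the start. The median number of CG dinucleotides was 28 where both variants were within 2 kb of the start, 24 with H2AZ only, 21 with H3.3 only and 5 with neither, against 13 over all windows. Among loci with an FPKM below 1, H2AZ only promoters had a median of 20 and H3.3 only promoters 9. Among loci with an FPKM of 1 or more these 2 classes had the same median, 26. The quartiles there were 16 and 36 for H3.3 only and 19 and 33 for H2AZ only. The median at such loci was 28 with both variants and 19 with neither. H3.3 was near the start of 10.7% of promoters in the poorest of 5 CG classes and 63.6% in the richest, and H2AZ near 16.3% and 78.3%. The middle class was already at 75.9% for H2AZ. From the poorest to the richest CG class among loci with an FPKM of 1 or more, H3.3 went from 40.7% to 73.8%. H2AZ went from 43.8% to 83.4% there. Among loci with an FPKM below 1, H3.3 went from 7.30% to 33.6% and H2AZ from 13.2% to 63.7%.

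The GC box core GGGCGG, read on both strands, was found in 76.0% of promoters with both variants, 64.9% with H3.3 only, 61.5% with H2AZ only and 30.0% with neither, against 44.1% of all windows. The TATA box letters TATAAA, read on both strands, were least frequent with both and most frequent with neither, at 4.76%, 8.90%, 8.70% and 18.9% in that order of classes, against 12.2% of all windows. CCAAT on both strands varied little, from 36.9% to 38.4%, against 36.2%. Such matches are letters in a window and no measure of factor binding.

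H3.3 peaks tended to be denser on gene-dense chromosomes. The ratio of H3.3 to H2AZ peaks ranged from 0.285 on chromosome 4 to 5.02 on chromosome 22. Chromosomes 16, 17, 19 and 22, which had the highest ratios, together held 28.6% of the H3.3 peaks, 9.39% of the H2AZ peaks and 18.6% of the loci. They were not the 4 densest in loci. Chromosomes 11 and 20 held 9.10 and 8.79 loci per Mb, close to the 9.01 and 8.67 of chromosomes 16 and 22. H3.3 peaks per Mb were 32.9 and 42.8 on chromosomes 11 and 20, against 59.8 and 78.3 on 16 and 22. Across 23 chromosomes, loci per Mb went with H3.3 peaks per Mb at Pearson's r of 0.890 and Spearman's rho of 0.869, and with H2AZ peaks per Mb at 0.376 and 0.119. The chromosomes share their libraries and depth and differ in base composition, whose part was not tested. The median number of loci within 500 kb was 14 for H3.3 only, 11 for shared and 6 for H2AZ only sites.

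Local gene density turned the order of H3.3 only and H2AZ only sites for H3K18ac and MED26. In the class of sites with the fewest loci nearby (0 to 4), H2AZ only made up 76.2% of sites, and H3K18ac overlapped 35.1% of the H3.3 only but 16.5% of the H2AZ only sites. In the densest class (21 to 66 loci), H3K18ac overlapped 13.2% of the H3.3 only and 47.7% of the H2AZ only sites. MED26 overlapped 6.57% of H3.3 only and 5.55% of H2AZ only sites in the sparsest class, and 8.04% and 43.2% in the densest. Pol II kept its order in both classes of density, with 4.70% of H3.3 only and 9.05% of H2AZ only sites in the sparsest class and 17.6% and 60.3% in the densest.

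Gene groups were read against these locus classes, which held 36.9% (both), 10.4% (H3.3 only), 21.5% (H2AZ only) and 31.2% (neither) of all loci and 70.5%, 20.3%, 5.17% and 3.996% of the highest expressed class. The cytosolic ribosomal protein genes had H3.3 at 71 of 76, with 45 genes in the class of both variants and 26 with H3.3 only, 2 with H2AZ only and 3 with neither. RPL8 had 3 H3.3 peaks covering 4500 bp at an FPKM of 6963 and no H2AZ, and RPS29 5 H3.3 peaks covering 500 bp with an H2AZ peak of 1000 bp at 4413. RPS20 (FPKM 645) had an H2AZ peak of 500 bp and no H3.3. RPL30 had neither, but ribosomal protein genes have near-identical copies elsewhere in the genome, so reads and peaks at single members are uncertain. Proteasome subunits were 23 both, 3 H3.3 only, 4 H2AZ only and 1 neither of 31, with PSMB3 (both, FPKM 879) and PSMB4 (H3.3 only, 685) at the top. DNA replication genes were 24, 6, 4 and 1 of 35, among them TK1, which encodes thymidine kinase (both, FPKM 991). Mitosis genes were 15, 5, 7 and 1 of 28, and CDC20, an activator of the anaphase-promoting complex, had H3.3 only (4900 bp in 2 peaks, FPKM 582).

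Immediate-early genes, which respond to growth factors within minutes, had H3.3 at 19 of 20 (13 both, 6 H3.3 only) and none was H2AZ only. Their median FPKM of 33.4 lies in the second highest expressed class, where 82.6% of loci had H3.3 and 9.85% had H2AZ only. The phosphatase gene DUSP1 had 5 H3.3 peaks covering 4100 bp and no H2AZ peak, and CCN1, JUND and IER3 were likewise H3.3 only. Actin and contractile genes were 14 both, 5 H3.3 only, 0 H2AZ only and 1 neither of 20, at a median FPKM of 222. These shares (70%, 25%, 0% and 5%) were near those of all loci in the highest expressed class (70.5%, 20.3%, 5.17% and 3.996%). ACTB had 3 H3.3 peaks covering 7700 bp against an H2AZ peak of 300 bp, and PFN1, which encodes the actin-binding profilin, 6 H3.3 peaks covering 2600 bp and no H2AZ. Heat shock genes were 7 both and 7 H3.3 only of 16. The small heat shock protein gene HSPB1 (FPKM 1799) was H3.3 only, and HSP90AB1 had H3.3 over 6200 bp and H2AZ over 1000 bp. HSPA1A and HSPA1B, near-identical copies, were both in the class of both variants. Of 20 p53 target genes 11 were both, 5 H3.3 only and 4 H2AZ only, with BAX both and CDKN1A, the gene for the cell cycle inhibitor p21, H3.3 only.

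Interferon response genes had H2AZ without H3.3 at 14 of 23 (60.9%), beside 4 both, 3 H3.3 only and 2 neither, at a median FPKM of 1.78. In the lowest expressed class of loci, whose range holds that FPKM, the share with H2AZ only was 34.4%. The 4 most abundant interferon response genes all had H3.3: ISG15 and IFI6 with both variants, IRF9 and ISG20 with H3.3 only. Their FPKM of 13.9 to 163 lie in the middle to highest expressed classes, where 70.8% to 90.8% of loci had H3.3. Of 50 developmental regulator genes outside the HOX clusters, with a median FPKM of 0.153, 17 were H2AZ only, 9 both, 1 H3.3 only and 23 neither (34%, 18%, 2% and 46%). All loci with an FPKM above 0 and below 1 had similar shares for 3 of these classes, at 29.4%, 20.4%, 10.8% and 39.4% in that order. NKX2-2, a homeobox gene, had an H2AZ peak of 1100 bp and no H3.3 at an FPKM of 5.48, whereas GATA4 had an H2AZ peak of 900 bp and an H3.3 peak of 300 bp at 8.11. Neuronal genes were 8 H2AZ only, 4 both, 3 H3.3 only and 5 neither of 20. Keratin genes had H2AZ at 2 of 20: 2 both, 6 H3.3 only, 0 H2AZ only and 12 neither, with KRT17 (FPKM 615) and the locus shared by KRT8 and KRT18 at H3.3 only.

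HOX genes, whose transcripts overlap in clusters, were 20 both, 5 H3.3 only, 7 H2AZ only and 7 neither of 39. HOXB9 had H3.3 over 1900 bp and H2AZ over 400 bp at an FPKM of 20.1, and the locus of HOXC13 had neither at 15.3. Collagen and matrix genes were 9 both, 5 H3.3 only, 7 H2AZ only and 2 neither of 23. COL1A1, the osteoblast collagen chain, had 6 H3.3 peaks covering 4100 bp and no H2AZ at an FPKM of 376. Genes in shared loci are counted by the locus, so neighbours and antisense genes cannot be told apart.

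The H3.3 list and the H2A.Z list of genes that make and place the variants had median FPKM of 12.8 and 20.7, and loci of like RNA level serve as their background: both variants were at 60.5% and 69.0% of the loci in the middle and second highest of the 5 expressed classes. Of the H3.3 genes and chaperones, 10 of 14 had both variants at their ends, 1 had H3.3 only and 3 had H2AZ only. H3-3B, which encodes H3.3, had 4 H3.3 peaks covering 2600 bp and an H2AZ peak of 100 bp at an FPKM of 184. H3-3A, which encodes the same protein, had H3.3 over 100 bp and H2AZ over 400 bp at a locus FPKM of 49.2 that includes H3P6. The chaperone genes HIRA, UBN1, CABIN1, ASF1A, ASF1B, DAXX and NASP and the remodeler gene CHD1 had both, whereas ATRX, DEK and UBN2 had H2AZ only and the remodeler gene CHD2 H3.3 only. Of the H2A.Z genes and remodelers, 13 of 20 had both, 3 had H3.3 only, 3 had H2AZ only and ZNHIT1 had neither. H2AZ1, which encodes the major form of H2A.Z, had 3 H2AZ peaks covering 900 bp and 2 H3.3 peaks covering 1000 bp at an FPKM of 798, and H2AZ2 had H2AZ over 200 bp and H3.3 over 1100 bp at 174. EP400 itself (FPKM 10.04) had H3.3 over 1200 bp and H2AZ over 500 bp, and SRCAP, INO80, VPS72, DMAP1, RUVBL1, KAT5, TRRAP, ACTL6A, ACTR6 and NAP1L1 also had both. ANP32E, which encodes a chaperone that removes H2A.Z, had H3.3 over 100 bp only, as RUVBL2 and MRGBP were H3.3 only, and YEATS4, BRD8 and EPC1 were H2AZ only.

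The most abundant genes of each class, by their locus FPKM, are given next. GAPDH, the glycolytic enzyme gene with an FPKM of 12383, had 3 H3.3 peaks covering 7600 bp and an H2AZ peak of 200 bp. RPL37A and TMSB10, of the class of both, had H3.3 over 1100 and 700 bp and H2AZ over 300 and 600 bp. Among H3.3 only genes, LGALS1 (galectin 1, FPKM 8753) had 6 peaks covering 3700 bp, RPS16 4500 bp and TUBA1B (a tubulin) 2800 bp. Among H2AZ only genes, TOMM7 (mitochondrial import, FPKM 543) had H2AZ over 200 bp, HLA-C over 700 bp, DANCR over 500 bp and SEC61B over 1100 bp. With neither, ANXA2P2 is a processed pseudogene, TMSB4X (FPKM 452) had Pol II over 2200 bp and H3K18ac over 2500 bp without either variant, and SLC25A6 (359) lies in a region shared by X and Y.

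The widest sites at locus ends showed how far H3.3 could extend. The widest H3.3 only site there (chr7:2559601-2569300, hg19, 9700 bp) lay at LFNG, which encodes a glycosyltransferase that modifies Notch, and a shared site of 4400 bp lay at the same locus (chr7:2546101-2550500). H3.3 only sites of 7100 bp and 6200 bp lay at KRT80 and at ENO1, the enolase gene. The widest shared site (chr16:2009701-2014400, 4700 bp) spanned the neighbours RPS2, SNHG9 and NDUFB10, and others lay at ATN1 with C12orf57 (4400 bp) and at RPL4 with SNAPC5 (3900 bp). The widest H2AZ only site at a locus end had 3200 bp, at EPC1 (chr10:32665701-32668900), a subunit gene of the TIP60 complex, and others had 2900 bp at TRPS1 and 2400 bp at FBXL17. The FPKM of the EPC1, TRPS1 and FBXL17 loci were 17.4, 0.676 and 0.658, and those of LFNG, KRT80 and ENO1 were 223, 252 and 3490. The next widest H3.3 only site, of 6100 bp, lay at a locus without a symbol at 38.1.

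After EP400 siRNA both variants had shorter lists, 41439 peaks for H3.3 and 26526 for H2AZ, and depth may differ between the libraries. A mock peak counted as kept if a peak of the same variant overlapped it in that list. For H3.3 5.01% were kept and for H2AZ 28.1%. The H3.3 list after EP400 siRNA met 532 shared, 3543 H3.3 only and 784 H2AZ only mock sites, few beside its 41439 peaks. Whether mock peaks that were not kept reflect loss of the variant or a list that repeats poorly was not tested. Mock H3.3 peaks with H2AZ were kept at 7.43%, those without at 4.81%. Mock H2AZ peaks with H3.3 were kept at 43.9%, those without at 26.3%. Width went with both: at 1000 bp or more, 37.9% and 35.1% of the H3.3 peaks (with and without H2AZ) and 93.3% and 91.5% of the H2AZ peaks (with and without H3.3) were kept. At 100 bp, H2AZ peaks with H3.3 were kept less often than those without, 3.71% against 6.62%. For H3.3 peaks of that width the shares were 0.929% (interval 0.581 to 1.48%) and 1.26% (1.15 to 1.39%), which counting error does not separate.

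**Figure D5:**
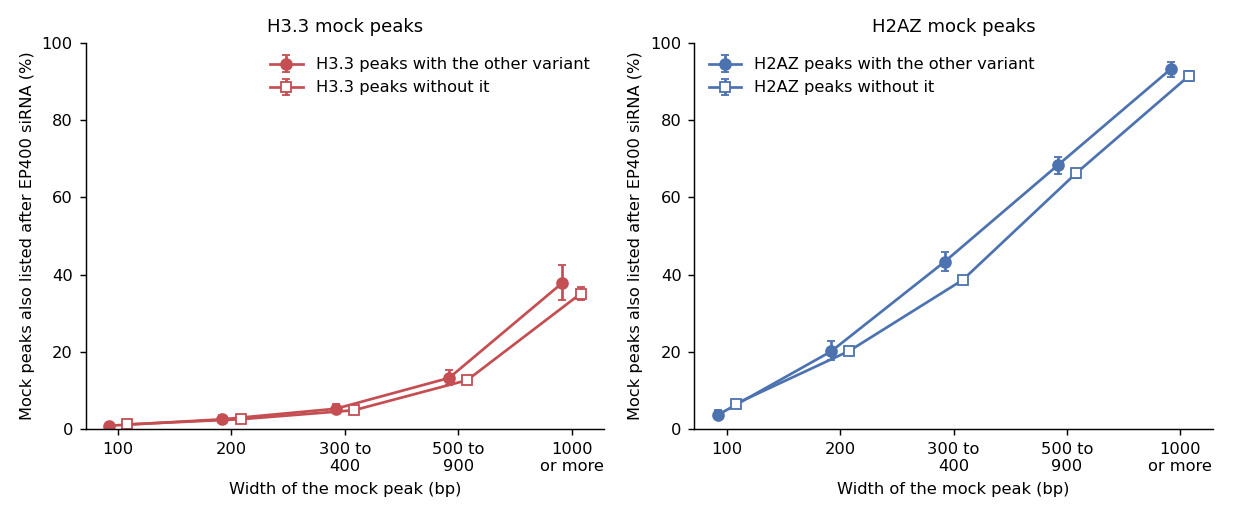
Share of mock H3.3 peaks (left) and H2AZ peaks (right) that overlap a peak of the same variant after EP400 siRNA (percent, vertical axis), by width of the mock peak (bp, horizontal axis), with 95% Wilson intervals; filled circles are peaks that overlap the other variant and open squares those that do not. The share goes from 0.929% to 37.9% for H3.3 peaks with H2AZ and from 3.71% to 93.3% for H2AZ peaks with H3.3.

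Of the 5967 shared sites, 249 overlapped both variants after EP400 siRNA (4.17%), 2461 H2AZ alone (41.2%), 283 H3.3 alone (4.74%) and 2974 neither (49.8%). Shares differed by place for H2AZ: 57.3% of the H2AZ peaks with H3.3 at locus ends were kept, against 20.4% at enhancers, while for H3.3 peaks with H2AZ the values were 7.47% and 10.5%. Peak width was not matched between places, and its part in these differences was not tested. The lists after EP400 siRNA overlapped each other less than the mock lists did, at 1.16% of the H3.3 and 1.79% of the H2AZ peaks. In each class of width the overlap was also lower than in mock, with 1.34% of H3.3 and 5% of H2AZ peaks of 1000 bp or more.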

How the data were processed

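ChIP and RNA libraries of U2OS cells were used as deposited by the authors. Each ChIP file is, per the file headers and values, an interval list (unit other: positions only, deposited by the authors without score) in steps of 100 bp, or 50 bp for EP400; no source used here names the peak caller, threshold or control. RNA values are FPKM that the authors deposited with confidence limits and a status per library. The tools and build named in the submitters' processing notes are TopHat2 2.0.8, Bowtie 0.12.9, hg19 and Cuffdiff 2.0.2. No depth came with either.

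Peaks that shared 1 bp or more were joined with Python 3.11.15, numpy 2.4.6, pandas 2.3.3 and scipy 1.17.1. FPKM were summed per locus over transcripts of 200 nt or more; loci with a failed estimate (55) were left out, as were loci with only shorter transcripts (675) and loci off the main chromosomes (29), leaving 20091 of 20850. Chromosomes named 23 and 24 in the lists were read as X and Y. Symbols came from RefSeq for 47555 of 48669 transcripts. The direction of loci with 1 symbol and the promoter windows came from a RefSeq table of GRCh38.p14, whose coordinates were not joined to hg19. Wilson, Newcombe and order-statistic intervals were taken at 95%. The steps that overlap and join peaks were tested on simulated peaks. No group held replicates, so no test was run. All columns of the RNA table that were used map to a sample; 4 inputs had no table and were not analysed here.

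The sites, gene lists and rules were chosen with earlier results of these data known. Named genes are the 6 loci of 1 symbol with the highest mock FPKM in each class, genes at the 4 widest sites of each class at locus ends, up to 4 members of each of 20 lists with the highest FPKM, and all genes of the H3.3 and H2A.Z lists; a few of these are not reported here. Alternatives were the overlap rule, the wider 50% of peaks, joining peaks, width classes, locus ends of 1 or 5 kb, the FPKM threshold and pseudocount, short transcripts and loci with 1 gene; leaving out chromosomes 16, 17, 19 and 22 and averaging over gene density were chosen after seeing the data.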

Additional observations from a re-analysis of the deposited data

How the results depend on the processing

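No paired analysis was possible because every variant and condition has 1 library, the replicate numbers belong to EP400 precipitations that came as 1 list, and their inputs had no table. The lists carry no depth, so peak numbers cannot be scaled between libraries, and a peak under the threshold counts as absent. Of 60 alternative values for 10 results, 11 stayed within the counting interval, 47 moved beyond it in the same direction and 2 reversed. Differences are H2AZ only minus H3.3 only in percentage points, and the cause of each shift was not tested.

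Both reversals concern the share of sites at locus ends: 2.80 points became -0.916 with peaks up to 1 kb apart joined and -7.93 with ends of 5 kb; it was 9.84 with ends of 1 kb. With an overlap of 50% of the shorter peak, 7.07% of the H3.3 and 9.62% of the H2AZ peaks were shared, and the differences were 9.99 for H3K18ac, 15.6 for Pol II and 10.6 for MED26. With the wider 50% of each list they were 8.04 at locus ends, 15.0 for H3K18ac, -14.5 for H3K4me1, 22.3 for Pol II, 4.45 for EP400, 18.1 for MED26, 38.5 for peaks kept after EP400 siRNA and -20.0 for loci with an FPKM of 1 or more. With peaks joined they were 2.40 for H3K18ac, -9.82 for H3K4me1, 6.46 for Pol II, 1.44 for EP400, 4.31 for MED26 and 19.5 for peaks kept.

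As a mean over width classes, 9.74% of the H3.3 and 15.0% of the H2AZ peaks were shared, and the differences were 4.28 at locus ends, 12.2 for H3K18ac, -16.1 for H3K4me1, 16 for Pol II, 3.87 for EP400, 14.3 for MED26 and 33.3 for peaks kept. Without chromosomes 16, 17, 19 and 22, 8.69% of the H3.3 and 9.27% of the H2AZ peaks were shared, and the differences were 2.23 at locus ends, 5.30 for H3K18ac, -10.9 for H3K4me1, 13.8 for Pol II, 2.09 for EP400 and 9.23 for MED26. As a mean over classes of local gene density they were 15.6 at locus ends, 12 for H3K18ac, -11.8 for H3K4me1, 26.1 for Pol II, 3.71 for EP400, 18.2 for MED26 and 24.2 for peaks kept. The difference in loci with an FPKM of 1 or more was -14.6; it was -10.9 with ends of 1 kb, -5.06 with a threshold of 0.1 and -27.2 with a threshold of 5. The median log2 FPKM of H2AZ only loci, 0.81 with a pseudocount of 1, was -0.22 with a pseudocount of 0.1 and 0.33 with 0.5; the order of the 4 classes was the same under all 3, but not among loci with an FPKM of 1 or more, where H3.3 only stood at 4.47, both at 3.85, neither at 2.39 and H2AZ only at 2.17.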
